A study of Arabidopsis thaliana with 17 samples.

Results

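The comparison described here set the shoots of KO3, a line of Arabidopsis thaliana with a deletion in NBR1, against the shoots of the wild type Col-0 (WT). It rests on 6 of the 17 microarrays of the series, 3 of KO3 shoots and 3 of WT shoots, and was chosen by line and tissue from the array labels. The deletion in KO3 was made with CRISPR/Cas9, and the transgene was afterwards removed from the homozygous plants by crossing. KO3 is 1 line, so what follows is a description of that line and not of NBR1 deletions at large. All plants were 4 weeks old and were grown hydroponically in diluted Hoagland medium under short days with no further treatment, and each RNA sample was taken from material of at least 3 plants. Shoots of a further deletion line, KO1 (3 arrays), entered the same fit, and roots of KO3 (3 arrays) and WT (2 arrays) are used where shoots are set beside roots.

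NBR1 is a cargo receptor of selective autophagy. It binds ubiquitinated proteins and the ATG8 proteins that coat the forming autophagosome, and so brings protein aggregates and other cargo to the vacuole for degradation. Leaves draw on autophagy at night and under sugar shortage, when starch and protein are broken down for energy. The question of the comparison was which transcripts differ in green tissue when NBR1 is lost, and what is known of the genes concerned.

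Each array gave a log2 signal for every probe set, a group of probes that reads 1 transcript. The values of different genes are not comparable as amounts, because probe sets differ in how well they bind, and a level below about 2 lies close to the array medians, which were 1.72 to 1.85 in the 9 shoot arrays. The KO3 and WT arrays were alike in spread, with a standard deviation over probe sets of 1.97 to 2.07, whereas replicate 1 of KO1 shoots stood apart with 1.41. That array enters no KO3 or WT mean, but it enters the shared estimate of the spread. It thus widens the standard errors of genes for which it lies far from the other KO1 arrays. The labelled tissue was checked on markers in shoots and roots, with the reservation that the sources used here do not state whether the tissues were normalized together. All 33 measured genes of light harvesting and the photosystems were brighter in shoots than in roots, with a median signal of 11.13 in KO3 shoots and 11.12 in WT shoots, and of 7.79 in KO3 roots and 7.52 in WT roots. All 11 measured root marker genes were dimmer in shoots than in roots, with a median of 1.39 in KO3 shoots and 1.36 in WT shoots, and of 5.12 in KO3 roots and 4.74 in WT roots. One root marker, PYK10, a β-glucosidase of endoplasmic reticulum bodies, had 5.81, 6.55 and 6.09 in KO3 shoots, against 6.44, 5.67 and 6.27 in WT shoots, so it was not low in shoots, and it averaged 9.81 in KO3 roots and 9.52 in WT roots.

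Of 18107 named probe sets, 25 were lower (0.138%) and 1 was higher (0.00552%) in KO3 shoots than in WT shoots at an adjusted p under 0.05 in limma. At the thresholds of the study's methods, an unadjusted p under 0.05 and a difference of at least 1.5-fold, 267 probe sets were lower (1.47%) and 219 were higher (1.21%). Whatever the fold, 910 of the 18107 probe sets had an unadjusted p under 0.05 in limma. That is about the number that such a cutoff passes where no probe set differs, so genes named at these thresholds alone are weakly supported. These counts depend on the arrays in the fit. Without replicate 1 of KO1 shoots, 361 probe sets were lower and 371 were higher at the study's thresholds. The 267 lower probe sets had a median difference of -0.95 (log2), with 116 of them at least 2-fold, and the 219 higher ones had a median of 0.82, with 61 at least 2-fold. Without regard to a threshold, 9104 of the 18107 probe sets were above WT and 8948 were below. The 3 KO3 arrays lay apart from the 3 WT arrays for 249 of the 267 and for 183 of the 219, against 12.4% of all probe sets tested. Both sets were chosen for their difference on these same arrays, so the separation largely follows from the choice and is no further evidence. The lower probe sets were bright in WT: 248 of the 267 belonged to the brightest of 3 equal classes of WT signal and 0 to the dimmest, while 140 of the 219 higher ones belonged to the brightest and 6 to the dimmest. Much of this follows from the classes, because WT signal is also 1 side of the difference. The dimmest class spanned WT means of 0.63 to 1.31, which leaves little room for a fall. The plot shows the differences against signal level.

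**Figure D1:**
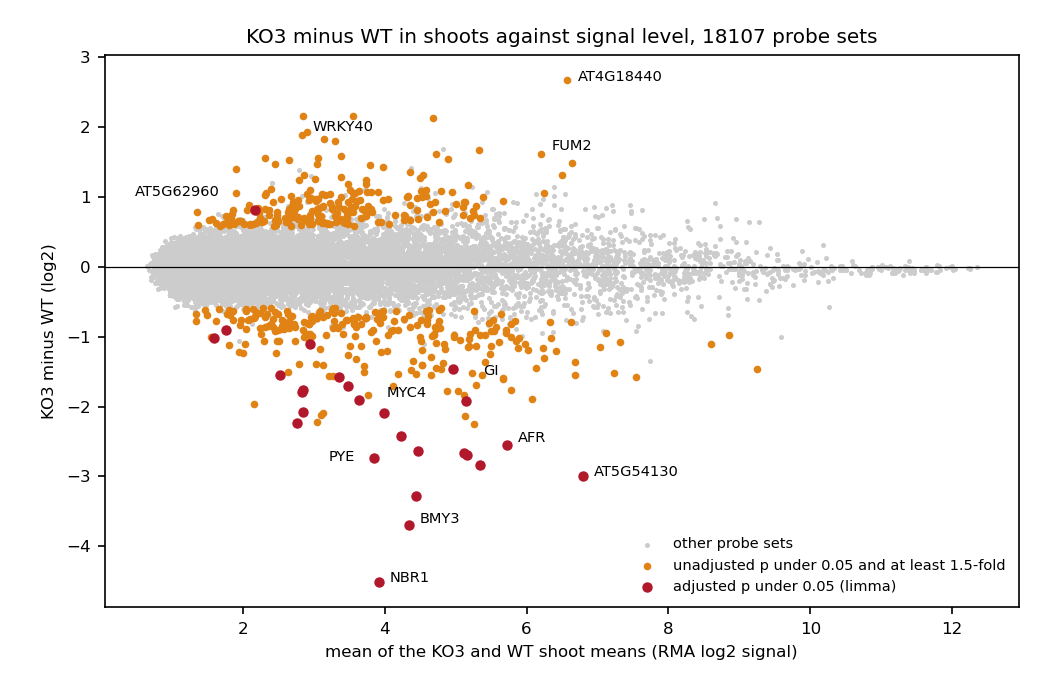
Difference between KO3 shoots and WT shoots (vertical axis, log2) against the mean signal of the 2 groups (horizontal axis, RMA log2 signal), 1 point for each of 18107 named probe sets. Red points are the 26 probe sets past an adjusted p of 0.05, 25 below and 1 above the zero line, and orange points are those past an unadjusted p of 0.05 and 1.5-fold.

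The number of adjusted calls rested on single arrays. Without replicates 1, 2 or 3 of KO3 shoots it was 13, 4 or 2 lower, and without replicates 1, 2 or 3 of WT shoots it was 4, 21 or 6 lower, with 0 higher in each case. Without replicate 1 of KO1 shoots it was 111 lower and 47 higher.

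NBR1 itself (AT4G24690) had signals of 1.81, 1.65 and 1.54 in KO3 shoots, against 5.73, 6.44 and 6.37 in WT shoots. It fell by 4.51 on the log2 scale (standard error 0.19, adjusted p = 5.99e-05), the largest difference among the probe sets tested, and KO3 signals lay within or below the range of array medians. It was the only one of 26 measured autophagy and endosomal sorting genes past either threshold, and the median of that list was 0.01 against 0.00 over all probe sets tested. ATG8 genes, whose products NBR1 binds, were among those 25 that passed neither threshold. Genes next to NBR1 on the chromosome were not called either: the next gene on one side, AT4G24700, had 1.98, 1.73 and 1.94 in KO3 shoots, against 2.35, 2.42 and 2.17 in WT shoots (log2 difference -0.43, adjusted p = 0.651), and the next on the other side, MOS1, differed by -0.33 (adjusted p = 0.998).

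After NBR1 the deepest fall was that of BMY3, also named BAM9, a member of the β-amylase family annotated as catalytically inactive. BMY3 had 2.28, 2.25 and 2.96 in KO3 shoots, against 6.02, 6.12 and 6.43 in WT shoots, a fall by 3.69 (standard error 0.30, adjusted p = 0.00622) or 12.9-fold. The lowest WT array was more than 3 log2 units above the highest KO3 array. BMY3 was the only one of 30 measured genes of starch and sugar metabolism past the adjusted threshold, and the median of that list was -0.04. SWEET2, a sugar transporter of the vacuole membrane, was lower at the study's thresholds, with 5.03, 4.51 and 5.07 in KO3 shoots, against 6.83, 6.33 and 6.23 in WT shoots (log2 difference -1.59, adjusted p = 0.392). APL3, a large subunit of ADP-glucose pyrophosphorylase, which makes the sugar donor for starch, was higher at those thresholds with 4.85, 5.32 and 5.07 in KO3 shoots, against 4.29, 4.61 and 4.41 in WT shoots (log2 difference 0.64, adjusted p = 0.650). For both genes the groups did not overlap, and neither passed the adjusted threshold.

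Genes of light signalling were also among the falls. AFR (ATTENUATED FAR-RED RESPONSE), an F-box protein that acts downstream of phytochrome A, had 4.47, 4.72 and 4.15 in KO3 shoots, against 7.36, 7.13 and 6.51 in WT shoots. It fell by 2.55 (standard error 0.29, adjusted p = 0.0145), or 5.87-fold. HYH, a bZIP factor homologous to HY5 that promotes light-induced transcription, had 1.99, 1.93 and 1.31 in KO3 shoots, against 3.55, 3.38 and 2.96 in WT shoots, and fell by 1.55 (standard error 0.22, adjusted p = 0.0499). In both genes all KO3 arrays lay below all WT arrays, and for HYH the KO3 level was near the array medians.

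BBX32, a B-box protein of light signalling, had 2.79, 1.57 and 1.45 in KO3 shoots, against 3.30, 4.81 and 4.35 in WT shoots (log2 difference -2.22, adjusted p = 0.197). GI (GIGANTEA), a clock component that also promotes flowering in long days, had 4.82, 4.29 and 4.31 in KO3 shoots, against 6.02, 5.92 and 6.05 in WT shoots (log2 difference -1.52, adjusted p = 0.198). Both were lower at the study's thresholds only, and for neither did the groups overlap. The other 6 measured genes of the clock and light list passed neither threshold. Among them TOC1, an evening component of the clock, had 2.35, 2.30 and 2.37 in KO3 shoots, against 1.90, 1.80 and 2.06 in WT shoots (log2 difference 0.42, adjusted p = 0.749), and PRR5, ELF4, FKF1, LKP2 and RVE2 differed by -0.33 to 0.05. In all, 4 of 10 measured members were lower and 0 higher at the study's thresholds, beside 1.47% lower and 1.21% higher of all probe sets tested. The list median was -0.28, or -0.92 without dim probe sets and -1.55 with the names of the platform table alone. The other names came from the study's lists of genes that differ in a line overexpressing NBR1, so which members were measured depended in part on those lists.

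PYE (POPEYE), a bHLH factor that holds back iron acquisition genes under iron shortage, had 2.42, 2.45 and 2.60 in KO3 shoots, against 5.30, 4.85 and 5.51 in WT shoots. It fell by 2.73 (standard error 0.26, adjusted p = 0.00704), or 6.63-fold. The other bHLH genes of iron supply that were measured, those with a named probe set, were not called. Of these, bHLH34 differed by -0.45 (adjusted p = 0.988) with overlapping arrays, BHLH101 by 0.36 (adjusted p = 0.998), and BHLH100, bHLH104, bHLH121 and bHLH11 by -0.09 to 0.17. Of 21 measured genes of iron and metal supply, out of 108 listed, 1 more was lower at the study's thresholds. This was MTP11, a manganese transporter, with 5.90, 5.90 and 5.70 in KO3 shoots, against 6.78, 6.69 and 7.08 in WT shoots (log2 difference -1.02, adjusted p = 0.989). MTP11 had 4.07, 5.77 and 6.1 in KO1 shoots, and these values enter the spread behind that p-value. With PYE, 9.52% of the measured genes were lower at those thresholds, beside 1.47% of all probe sets tested. The list median was 0.08.

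Another bHLH factor, MYC4, which acts with MYC2 and MYC3 in the jasmonate response and in glucosinolate synthesis, had 3.66, 4.11 and 4.19 in KO3 shoots, against 6.0, 5.44 and 5.86 in WT shoots. The log2 difference was -1.78 (standard error 0.26), just outside the threshold with an adjusted p of 0.0520, and the groups did not overlap. MYC3 had 5.32, 5.71 and 5.43 in KO3 shoots, against 5.58, 5.78 and 5.59 in WT shoots, and MYC2 ranged from 1.75 to 3.06 in KO3 shoots and from 2.06 to 3.49 in WT shoots, so both overlapped between the groups. No other member of the 11 measured jasmonate and wounding genes passed either threshold, and the list median was 0.07. MYR2, a MYB-related factor, had 2.2, 2.44 and 2.55 in KO3 shoots, against 3.57, 3.63 and 3.32 in WT shoots, and fell by 1.11 (adjusted p = 0.0457).

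A pair of falls concerned the cell wall. TBL37, of the TRICHOME BIREFRINGENCE-LIKE family whose members add acetyl groups to wall polysaccharides, had 4.05, 4.51 and 4.01 in KO3 shoots, against 5.96, 6.0 and 6.37 in WT shoots, and fell by 1.92 (standard error 0.19, adjusted p = 0.00720). AT1G48100, annotated as a polygalacturonase of glycoside hydrolase family 28, a class of enzymes that cut pectin, had 3.18, 2.77 and 2.88 in KO3 shoots, against 5.19, 5.30 and 4.62 in WT shoots, and fell by 2.09 (standard error 0.20, adjusted p = 0.00704). It was the 1 gene of the 26 that is also in the study's table of genes related to abscisic acid. Among the 102 measured genes of the wall remodelling list, which does not hold AT1G48100, TBL37 was the only adjusted call, and the list median was 0.05. At the study's thresholds EXPA8, an expansin, was lower as well (log2 difference -0.97, adjusted p = 0.723), while the expansin-like EXLA1 had 4.15, 4.80 and 4.38 in KO3 shoots, against 3.32, 3.47 and 3.31 in WT shoots (log2 difference 1.08, adjusted p = 0.898). TBL24, a relative of TBL37, also stood higher, with 4.20, 4.03 and 4.05 in KO3 shoots, against 3.10, 3.05 and 3.63 in WT shoots (log2 difference 0.83, adjusted p = 0.508). The third gene above WT was GH9B8, of the endoglucanase family, with 5.61, 5.58 and 5.24 in KO3 shoots, against 4.67, 4.52 and 4.99 in WT shoots (log2 difference 0.75, adjusted p = 0.756). So 2 members of the wall list were lower (1.96%) and 3 were higher (2.94%), beside 1.47% and 1.21% of all probe sets tested.

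The remaining adjusted falls had only a locus identifier and no function in the sources used here. AT3G09450 had 3.05, 2.70 and 2.65 in KO3 shoots, against 6.28, 5.68 and 6.29 in WT shoots, and fell by 3.28 (adjusted p = 0.00720). AT5G54130, the brightest of them, had 5.97, 5.12 and 4.80 in KO3 shoots, against 8.31, 8.17 and 8.39 in WT shoots, and fell by 2.99 (adjusted p = 0.0163). AT1G65870 had 4.81, 3.43 and 3.52 in KO3 shoots, against 6.83, 6.86 and 6.57 in WT shoots, and fell by 2.83 (adjusted p = 0.0168). In this gene replicate 1 of KO3 lay more than 1 log2 unit above the other KO3 arrays, and still below each WT array.

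AT5G15950 had 3.91, 3.72 and 3.82 in KO3 shoots, against 6.58, 6.21 and 6.75 in WT shoots, and fell by 2.70 (adjusted p = 0.00704). AT5G47610 fell by 2.66, AT1G19490 by 2.63, AT3G24460 by 2.43, AT2G28200 by 2.24 and AT3G55580 by 2.08. AT4G28290 fell by 1.90, AT2G27420 by 1.79, AT2G36970 by 1.76, AT2G33360 by 1.71, AT3G18950 by 1.58 and AT4G19450 by 1.46. AT4G27360 fell by 1.02, with 1.2, 1.01 and 1.04 in KO3 shoots, against 2.19, 1.98 and 2.13 in WT shoots, and AT4G33560 by 0.91, so that these dim probe sets were called on small and tight values. In all 26 adjusted calls the 3 KO3 arrays lay apart from the 3 WT arrays, an exact permutation p of 0.1 for each single gene, the smallest that 3 against 3 arrays can give. For 6 of the 25 falls the KO3 mean was at or below the highest array median, and the fold of those genes is that of RMA values near the low end of the scale. AT1G05170 and AT1G64500 were also among the 15 deepest falls at the study's thresholds, with differences of -2.25 and -2.13 and adjusted p-values of 0.197 and 0.126.

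**Figure D2:**
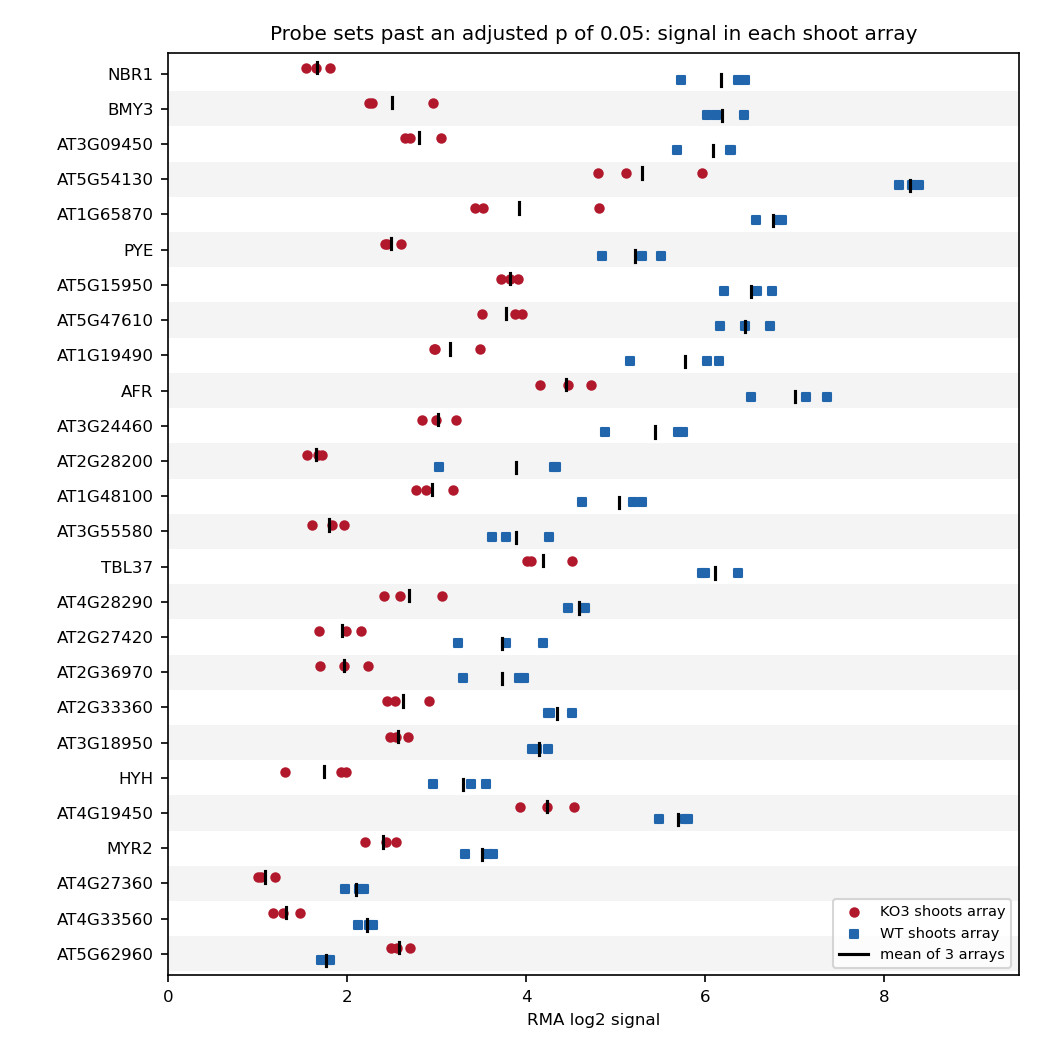
RMA log2 signal (horizontal axis) of the 26 probe sets past an adjusted p of 0.05 in each of the 3 KO3 shoot arrays (red circles) and 3 WT shoot arrays (blue squares), with black bars at the group means. The 25 genes from NBR1 to AT4G33560 lie lower in every KO3 array than in any WT array, and AT5G62960 in the bottom row lies higher.

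The 1 gene that rose past the adjusted threshold was AT5G62960, which has no function in the sources used here. It had 2.56, 2.70 and 2.49 in KO3 shoots, against 1.71, 1.81 and 1.79 in WT shoots, and rose by 0.81 (standard error 0.12, adjusted p = 0.0499), or 1.76-fold. It was not called when any 1 of the 6 arrays was left out (adjusted p = 0.144 to 0.258) or when dim probe sets were left out (adjusted p = 0.101).

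The genes that stood furthest above WT at the study's thresholds had larger differences and wider spread. AT4G18440 led them with 7.78, 8.52 and 7.44 in KO3 shoots, against 4.14, 6.26 and 5.32 in WT shoots, a log2 difference of 2.67 (standard error 0.83, adjusted p = 0.682). Its WT arrays spanned more than 2 log2 units. AT1G68600 had 3.24, 4.59 and 3.97 in KO3 shoots, against 1.79, 1.96 and 1.55 in WT shoots, a log2 difference of 2.17 (adjusted p = 0.148). AT1G70820 differed by 2.13 and AT1G59930 by 1.93.

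Of these 15 genes 2 have symbols that name a function. FUM2, the cytosolic fumarase, which forms the fumarate that Arabidopsis leaves store by day, had 6.92, 7.08 and 7.06 in KO3 shoots, against 5.15, 5.38 and 5.66 in WT shoots. Its log2 difference was 1.62 (standard error 0.29, adjusted p = 0.147), with a narrow spread in KO3 and a gap of more than 1 log2 unit between the groups. WRKY40, a transcription factor induced by wounding and pathogens, had 4.74, 3.74 and 2.85 in KO3 shoots, against 1.37, 2.74 and 1.55 in WT shoots (log2 difference 1.89, adjusted p = 0.457), so that the lowest KO3 array was next to the highest WT array. AT5G44680, annotated as a DNA-3-methyladenine glycosylase, a DNA repair enzyme, had 5.68, 6.51 and 6.32 in KO3 shoots, against 4.28, 4.39 and 4.82 in WT shoots (log2 difference 1.67, adjusted p = 0.650). The other 8 of the 15, AT1G13650, AT1G14250, AT1G16350, AT1G33610, AT1G22570, AT4G21215, AT5G44568 and AT5G03350, differed by 1.48 to 1.83, and over all 15 the adjusted p ranged from 0.138 to 0.723.

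**Figure D3:**
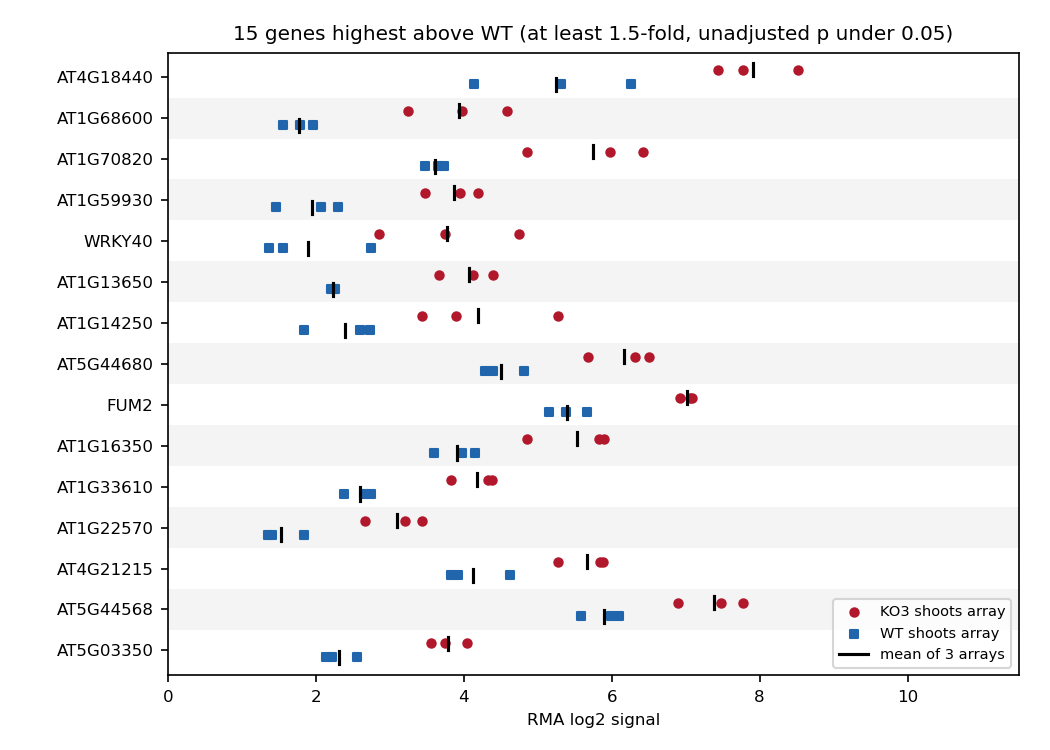
RMA log2 signal (horizontal axis) in each KO3 shoot array (red circles) and WT shoot array (blue squares) of the 15 genes furthest above WT at 1.5-fold and an unadjusted p under 0.05, with black bars at the group means. The groups do not overlap in any of the 15 by the rule that chose them, and the KO3 arrays are close together for FUM2 and spread out for WRKY40.

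Genes linked to defence stood on both sides. AT5G10760 (AED1), an aspartyl protease of the apoplast that depends on the immune regulator EDS1, had 4.58, 4.39 and 4.07 in KO3 shoots, against 3.19, 3.29 and 3.33 in WT shoots (log2 difference 1.08, adjusted p = 0.251). LURP1, named for its induction by downy mildew, differed by 1.04 (adjusted p = 0.916) and NPR3, a receptor of salicylic acid, by 0.98 (adjusted p = 0.813). The flagellin receptor FLS2 was lower, with 0.78, 1.05 and 1.02 in KO3 shoots, against 1.99, 1.70 and 1.49 in WT shoots (log2 difference -0.78, adjusted p = 0.223). These 4 of 13 measured defence genes passed the study's thresholds, 3 higher (23.1%) and 1 lower (7.69%), beside 1.21% higher and 1.47% lower of all probe sets tested. None passed the adjusted threshold, and the list median was 0.05. In all 4 genes the arrays did not overlap between the lines, and FLS2 was dim in both.

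Among protein folding genes, AT5G48570 (ROF2 or FKBP65), a heat-induced peptidyl-prolyl isomerase, had 4.31, 3.96 and 3.95 in KO3 shoots, against 2.71, 2.72 and 3.23 in WT shoots (log2 difference 1.19, adjusted p = 0.197). BIP1, an HSP70 of the endoplasmic reticulum, had 3.66, 4.48 and 4.44 in KO3 shoots, against 3.30, 2.94 and 3.80 in WT shoots (log2 difference 0.85, adjusted p = 0.954), and the lowest KO3 array lay below the highest WT array. HSP60, a chaperonin of the mitochondrion, had 7.53, 7.74 and 7.68 in KO3 shoots, against 6.60, 6.64 and 7.06 in WT shoots, which did not overlap, but passed neither threshold (log2 difference 0.88, standard error 0.46, adjusted p = 0.998). That standard error comes from the spread shared with the KO1 shoot arrays, not from KO3 and WT alone. Of 10 measured members 7 were above WT, set beside 9104 of 18107 probe sets in all, 2 at the study's thresholds and 0 at the adjusted one, and the list median was 0.42.

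Sulphur genes were split. APS3, an ATP sulfurylase of sulphate assimilation, had 4.31, 3.91 and 4.02 in KO3 shoots, against 2.61, 3.26 and 3.20 in WT shoots (log2 difference 1.06, adjusted p = 0.351), and LSU2, a marker of low sulphur, differed by -0.67 (adjusted p = 0.891). CYP79B2, which turns tryptophan into indole-3-acetaldoxime on the way to indole glucosinolates and camalexin, had 4.23, 4.40 and 3.60 in KO3 shoots, against 3.05, 3.42 and 2.94 in WT shoots (log2 difference 0.94, adjusted p = 0.457). It was the only one of 9 measured glucosinolate genes past the study's thresholds, and the list median was 0.35, with 7 of the 9 above WT, set beside 9104 of 18107 in all. Other cytochrome P450 genes, CYP71B5, CYP71B35 and CYP705A2, were lower at those thresholds, with log2 differences of -0.89, -0.81 and -0.66.

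Among hormone genes HAT2, an auxin-inducible homeodomain-leucine zipper gene, had 2.85, 3.70 and 3.02 in KO3 shoots, against 1.65, 1.59 and 1.91 in WT shoots (log2 difference 1.47, adjusted p = 0.126), and was the only one of 26 measured auxin genes past the study's thresholds. CKX4, a cytokinin-degrading oxidase, differed by 0.94 (adjusted p = 0.916) and overlapped between the groups. RGL1, a DELLA repressor of gibberellin response, had 2.17, 2.09 and 1.90 in KO3 shoots, against 3.17, 3.44 and 2.24 in WT shoots (log2 difference -0.90, adjusted p = 0.773). RGL1 and the expansin EXPA8 were the 2 of 7 measured gibberellin genes lower at the study's thresholds (28.6%), beside 1.47% of all probe sets tested. The list median was -0.18. ABR1, an ERF factor that represses abscisic acid responses, had 3.59, 3.29 and 0.94 in KO3 shoots, against 1.38, 1.24 and 0.98 in WT shoots, so its difference of 1.41 (adjusted p = 0.960) rested on replicates 1 and 2 of KO3.

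Among genes of darkness and sugar starvation, SEN1, also named DIN1 and induced in darkened and senescing leaves, had 3.97, 4.48 and 3.19 in KO3 shoots, against 5.69, 5.30 and 5.30 in WT shoots (log2 difference -1.55, adjusted p = 0.374). DIN10, a raffinose synthase homologue induced by darkness, had 2.75, 3.85 and 3.40 in KO3 shoots, against 4.61, 3.90 and 5.16 in WT shoots (log2 difference -1.22, adjusted p = 0.571). The groups did not overlap in either gene, but for DIN10 the highest KO3 array was within 0.1 of the lowest WT array. They were 2 of 11 measured members of the list lower at the study's thresholds (18.2%), beside 1.47% of all probe sets tested. The list median was -0.20. In the epidermis, STOMAGEN, a peptide that promotes stomata, differed by -0.89 (adjusted p = 0.696), and TRY, a MYB that suppresses trichome fate, by -0.90 (adjusted p = 0.723). These were 2 of 8 measured genes lower at the study's thresholds (25.0%), beside 1.47% of all probe sets tested, with a list median of -0.23.

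Single members of other lists passed the study's thresholds. CNGC12, a cation channel gene linked to defence, had 6.29, 6.93 and 6.18 in KO3 shoots, against 7.93, 7.75 and 8.29 in WT shoots (log2 difference -1.52, adjusted p = 0.819). UBC28, a ubiquitin-conjugating enzyme, was the only one of 60 measured members of the proteasome and ubiquitin list (log2 difference -0.90, adjusted p = 0.970). Lists were matched by gene symbol or synonym, so family members known here only by a locus identifier may be missing from them. The glycosyltransferases UGT85A2 and UGT88A1 differed by 0.85 and 0.70, and FAR1, a fatty acyl reductase that makes alcohols of suberin, by 0.88.

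Several functional groups held no call at either threshold among their measured members. They were 33 of 77 listed genes of light harvesting and the photosystems (median -0.02) and 14 of 93 listed ribosomal protein genes, all plastid (median -0.03). Likewise without a call were 4 of 23 Calvin cycle and photorespiration genes, 28 of 134 cell cycle and histone genes, 37 of 116 redox and detoxification genes, and 13 of 60 phenylpropanoid genes. Listed genes that were not measured were not tested. For the photosystem genes the differences lay between -0.11 and 0.27. Cold-regulated genes had a median of 0.32, with 12 of 14 above WT, set beside 9104 of 18107 in all. Their arrays overlapped between the groups in 13 of the 14, and did not in COR413-PM1, with 8.33, 8.11 and 8.11 in KO3 shoots, against 7.86, 7.70 and 7.94 in WT shoots (log2 difference 0.35, adjusted p = 0.998). The brightest, COR15A, had 10.53, 10.32 and 10.17 in KO3 shoots, against 9.86, 10.04 and 10.18 in WT shoots, which overlapped. All 4 measured genes of chlorophyll synthesis were above WT by 0.02 to 0.56, and none was called.

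**Figure D4:**
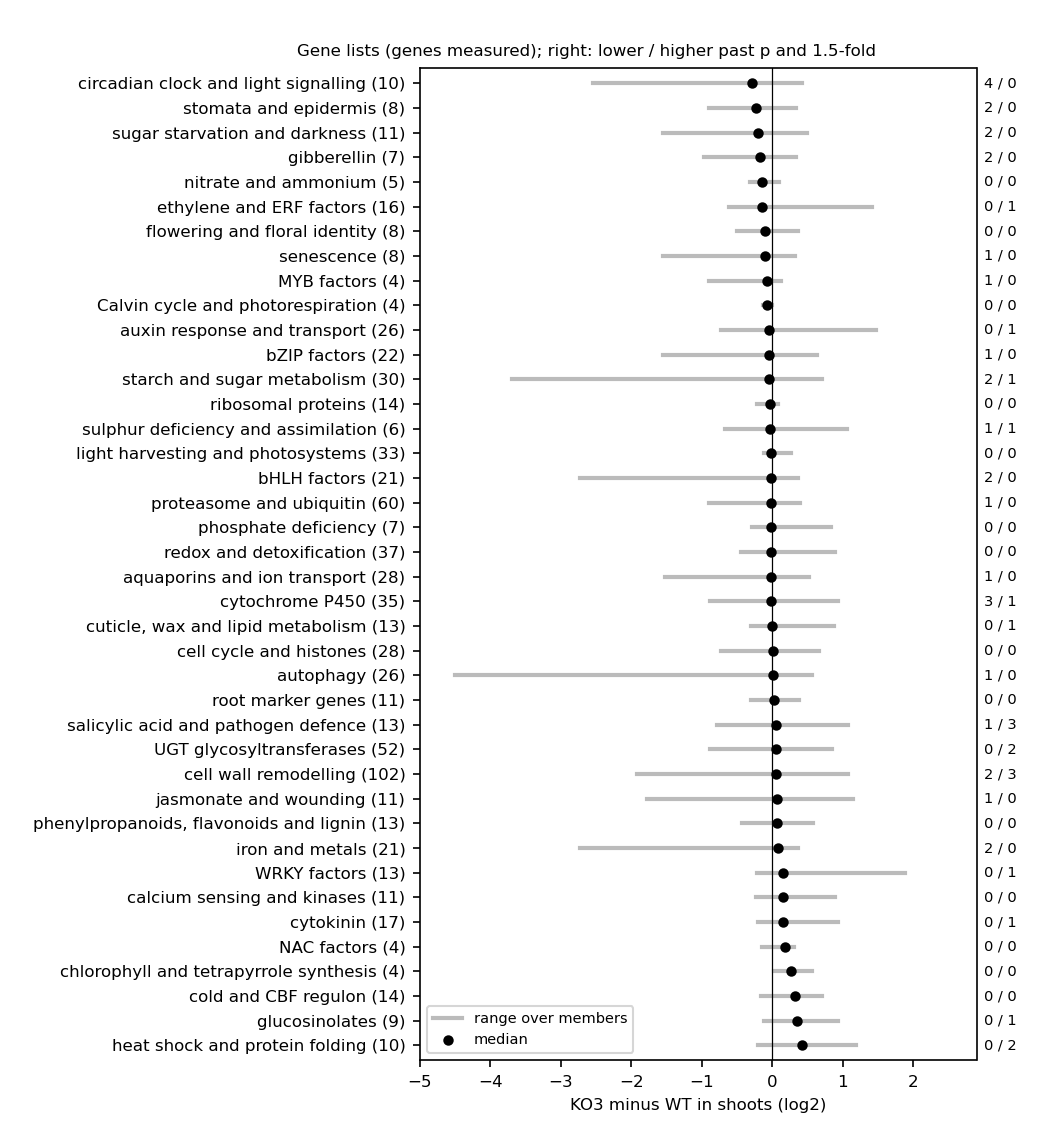
Difference between KO3 shoots and WT shoots (horizontal axis, log2) over the measured members of each gene list with at least 4 genes, as the median (black point) and the range (grey bar), with the number of genes measured in parentheses. The numbers at the right count members lower and higher at an unadjusted p under 0.05 and 1.5-fold, for example 4 lower and 0 higher of 10 for the clock and light list and 2 lower and 3 higher of 102 for wall remodelling.

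KO1 shoots were fitted beside KO3 shoots, and both are set against the same 3 WT arrays. For the difference KO3 minus KO1, whose means use no WT array, 0 of 18107 probe sets (0.0%) passed an adjusted p of 0.05 in limma, with 1211 at an unadjusted p under 0.05 and a lowest adjusted p of 0.648. Replicate 1 of KO1 shoots, which stood apart, enters both the KO1 mean and the spread of this difference. The 0 calls therefore do not show that the lines are alike. Of the 26 adjusted calls of KO3 shoots, 25 were also called in KO1 shoots against those WT arrays with the same sign, all but AT5G62960. Both differences use the same WT means and the same spread, so this overlap is in part built in and is no independent repeat. The share of all probe sets called in KO1 shoots is not given here. BMY3 was -3.69 in KO3 and -3.92 in KO1 relative to WT, AFR -2.55 and -2.85, PYE -2.73 and -2.06, and MYC4 -1.78 and -2.15. The rise of AT5G62960 was 0.81 in KO3, while KO1 differed from WT by -0.02, and KO3 minus KO1 was 0.83 (limma, unadjusted p = 5.67e-05, adjusted p = 0.648). WRKY40 differed from WT by 1.89 in KO3 and by -0.07 in KO1.

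Roots of the same line gave other arrays and another WT group, although shoots and roots came from the same sets of plants. In KO3 roots 39 probe sets (0.215%) were called against WT roots. Of the 25 falls of KO3 shoots, 17 were also lower in KO3 roots and 2 were called there. These were NBR1, with 3.82, 4.59 and 3.87 in KO3 roots, against 7.41 and 7.23 in WT roots, and AT5G15950, which fell by 1.12 in KO3 roots (adjusted p = 0.0371). Over the study's thresholds, 142 of the 267 lower probe sets of shoots (53.2%) were lower in KO3 roots, against 49.5% of all probe sets, and 147 of the 219 higher ones (67.1%) were higher in KO3 roots, against 50.5% of all. The median root differences of these sets were -0.02 and 0.13.

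When the KO3 effect in roots was subtracted from that in shoots, the result was past an adjusted p of 0.05 for 18 probe sets (0.0994%), and 13 of the 26 adjusted calls of shoots were among them. The 26 were chosen for their difference on the same shoot arrays, so this overlap follows in part from the choice. BMY3 had a shoot effect of -3.69 and a root effect of 0.03, a difference of -3.72 (adjusted p = 0.00587), PYE had -2.73 and 0.30 (difference -3.03, adjusted p = 0.00429), and TBL37 had -1.92 and -0.03 (difference -1.89, adjusted p = 0.00587). For AFR and HYH the tissue difference did not pass, with adjusted p-values of 0.0686 and 0.506. GI had opposite signs in the tissues: its shoot difference was -1.52, it rose by 1.48 in KO3 roots (adjusted p = 0.0127), and the tissue difference of -3.00 had an adjusted p of 0.00429. None of the 15 genes furthest above WT in shoots was called in KO3 roots or differed between the tissues past the threshold.

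**Figure D5:**
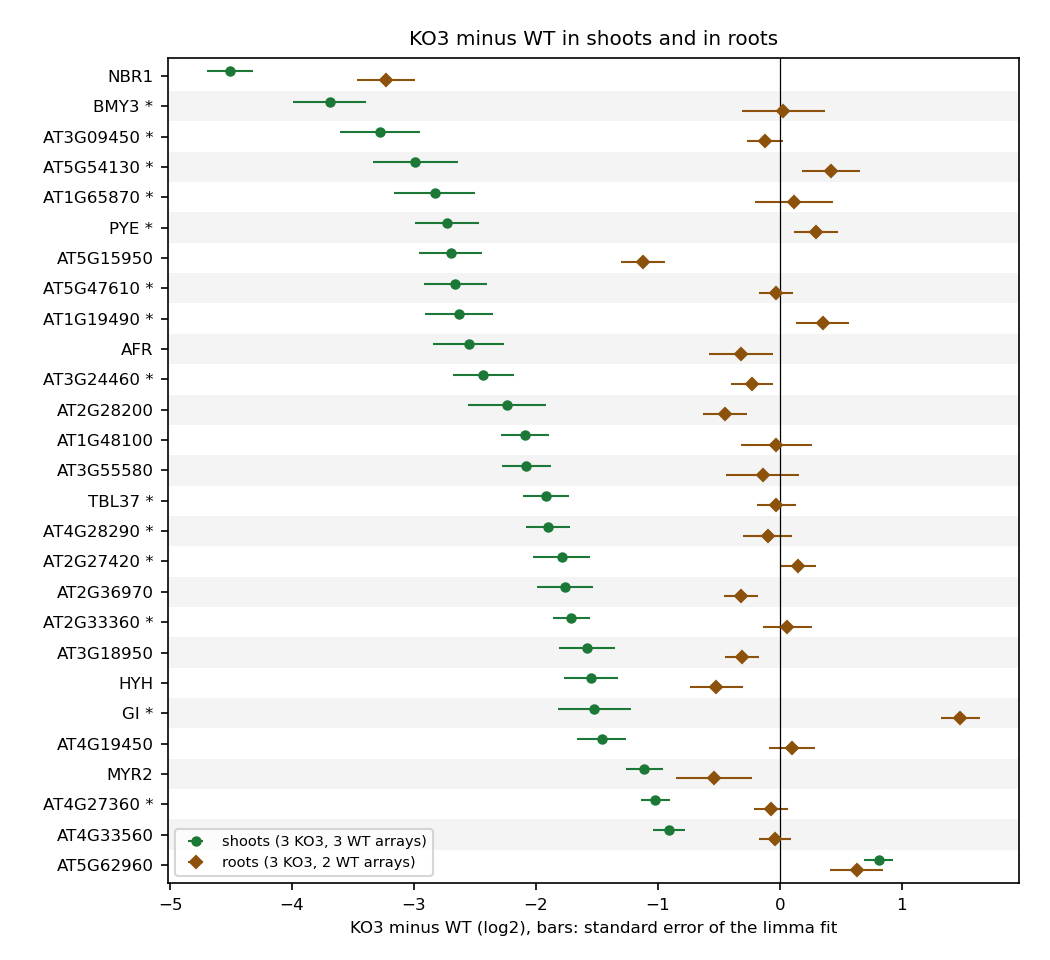
KO3 minus WT (horizontal axis, log2) in shoots (green circles) and in roots (brown diamonds) for the 26 adjusted calls of shoots and GI, with bars of 1 standard error from limma. An asterisk marks genes whose shoot and root effects differed at an adjusted p under 0.05, and GI is the gene whose root effect lies far to the right of zero.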

How the data were processed

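The authors deposited RMA log2 signals of 28583 probe sets from Affymetrix Arabidopsis Gene 1.1 ST arrays, made with Transcriptome Analysis Console and TAIR10 (versions of the tool not given in the sources used here). No detection calls, slides or scan dates were used, and the number of arrays limits the precision. The 18107 probe sets with a gene name were tested, 17504 named by the platform table and 603 by the study's supplements. Those supplements list genes that differed from WT in shoots or roots of a line overexpressing NBR1, so these 603 were not a neutral choice. NBR1 and BMY3 were among them. limma 3.58.1 in R 4.3.3 (lmFit, eBayes) fitted the 9 shoot arrays of KO3, WT and KO1 with a shared spread, without replicate blocks, and p-values were adjusted by Benjamini-Hochberg over all probe sets tested. KO3 minus KO1 came from the same fit, root effects from the root arrays, and tissue differences from 1 fit of all 17 arrays. The script was tested on simulated data. Other steps used Python 3.11.15, NumPy 2.4.6, pandas 2.3.3 and matplotlib 3.10.9.

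Members of the comparison and all 41 gene lists were chosen with earlier results of these data known, and lists are described by counts and medians with no test. A gene is represented by its probe set with the highest mean over shoot arrays. From the lists 9 members were left out, after their values had been seen, because their annotation names another gene than the list intended. Named genes are NBR1, every adjusted call of 1 gene, the 15 deepest falls and 15 highest rises past 1.5-fold and an unadjusted p under 0.05 with arrays apart and signal above the median, and up to 4 list members past those thresholds. List members with neither call, and neighbours of NBR1, were named after their values were seen. Alternatives changed the normalization, the probe sets, the moderation, the arrays in the fit and the replicate block. Motifs and sequences were not analysed here.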

Additional observations from a re-analysis of the deposited data

Results flagged for a closer look

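The effect of KO3 differed between shoots and roots past an adjusted p of 0.05 (limma, shoots minus roots) for 14 of the named genes. The difference was -3.72 for BMY3, -3.42 for AT5G54130, -3.17 for AT3G09450, -3.03 for PYE, -3.00 for GI, -2.98 for AT1G19490, -2.96 for AT1G65870 and -2.63 for AT5G47610. It was -2.19 for AT3G24460, -1.94 for AT2G27420, -1.89 for TBL37, -1.80 for AT4G28290, -1.76 for AT2G33360 and -0.95 for AT4G27360. All 14 had been named for being lower in KO3 shoots, so the negative sign follows from how they were chosen.

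Probe sets with no gene name, 10476 in number, were not part of the comparison. In a fit of all probe sets 26 of them passed an adjusted p of 0.05, all lower in KO3 shoots than in WT shoots, with log2 differences from -4.61 to -0.99. At 1.5-fold and an unadjusted p under 0.05, 227 were lower and 171 were higher. The genes they read are not named in the sources used here.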

How the results depend on the processing

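No named gene changed sign under any alternative. Adjusted calls numbered 25 lower and 1 higher. They were 68 and 22 with quantile normalization, 43 and 8 with trend and robust options, 1 and 0 with an unmoderated model, 81 and 23 with array weights, 81 and 42 with KO3 and WT shoot arrays only, 80 and 17 with all arrays in 1 fit, and 111 and 47 without KO1 shoots replicate 1. With all probe sets 52 were lower. Without dim probe sets 0 were higher, as with platform names alone. Leaving out 1 of the 6 KO3 and WT shoot arrays in turn left 2 to 21 lower and 0 to 0 higher. At the study's thresholds (267 lower, 219 higher), all probe sets gave 490 and 390. The higher count was 130 unmoderated, 375 with array weights, 365 with KO3 and WT shoot arrays only and 371 without KO1 shoots replicate 1. Leaving out 1 of the 6 KO3 and WT shoot arrays in turn gave 255 to 319 lower and 165 to 275 higher.

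Same-numbered KO3 and WT shoot arrays did not deviate together (correlations 0.056, -0.074 and 0.091), so the numbers were not taken as pairs. With a replicate block 19 probe sets were lower and 2 were higher, and 16 of the 26 called genes were called. With KO3 and WT shoot arrays only and a replicate block, an alternative added after seeing the data, 42 were lower and 9 higher, and 386 were higher at the study's thresholds. Over all alternatives the 26 called genes kept the call in 330 fits and lost it in 162, the 51 other named genes gained it in 124, and the medians of the 41 lists moved by more than their spread between arrays in 57 fits.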
